A study of Mus musculus with 6 samples.

Results

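The 10 genes described here encode the contractile apparatus and the natriuretic hormones of heart muscle cells: *Nppa*, *Nppb*, *Myh6*, *Myh7*, *Tnnt2*, *Tnni3*, *Myl2*, *Myl3*, *Actc1* and *Ttn*. They were taken by gene symbol from a table of 28987 genes, and each symbol was found in it. The genes were chosen by symbol with their values in the comparison of the 2 groups already known, so differences between the groups are given as a description and not as evidence. The RNA measured was that of EGFP+ cells sorted from heart ventricles, labelled cardiac fibroblasts, in 3 control libraries (numbered 3, 4 and 2 as in the labels) and 3 libraries labelled Hsp47-deleted (numbered 1, 2 and 3).

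All mice in both groups carried a MerCreMer cDNA, a Cre recombinase that tamoxifen activates, in the *Postn* locus, and a Cre-dependent EGFP reporter in the *Rosa26* locus. The Hsp47-deleted group carried in addition loxP sites in *Hsp47* (gene symbol *Serpinh1*), a chaperone of collagen folding. Pressure overload was produced by transverse aortic constriction (TAC) at an age of 8 to 10 weeks, and cells were sorted 4 weeks later. Per the labels, tamoxifen was injected at 100 mg/kg and given in chow at 40 mg/kg to both groups, and the methods of the study give other doses. EGFP marks cells in which *Postn* has been active, which in the pressure-overloaded heart are mainly activated fibroblasts. RNA was amplified before library construction. Per the labels, controls 3 and 4 were sequenced in a run of their own (the first run), whereas control 2 shared the second run with the 3 Hsp47-deleted libraries. With 2 of the 3 controls alone in their run, run and label are partly confounded in the comparison of all 6 libraries, and differences are therefore also given against control 2. *Serpinh1* had a log2 value from 6.10 to 7.60 in the control libraries and from 6.66 to 6.87 in those labelled Hsp47-deleted, so the targeted gene was not lower by group mean (log2 fold change 0.072, limma adjusted p = 0.947). It was lower in all 3 Hsp47-deleted libraries than in control 2, at 7.60, by 0.87 (limma adjusted p = 0.754), and the pooled difference was -0.34 after centring and -0.27 with quantile normalization. As its sign depends on these choices, the groups are named by their labels. The study reports efficient loss of Hsp47 protein, by Western blot, in sorted EGFP+ cells of the deleted genotype. The RNA values here do not measure protein.

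Heart muscle cells contract by sliding myosin thick filaments along actin thin filaments within the sarcomere. The motor is a myosin heavy chain, *Myh6* (α, the main form of the adult mouse ventricle) or *Myh7* (β, the fetal form that mouse ventricles express again under load), which carries the regulatory light chain *Myl2* and the essential light chain *Myl3*. Cardiac α-actin (*Actc1*) forms the thin filament, on which troponin T (*Tnnt2*) and the inhibitory subunit troponin I (*Tnni3*) make contraction depend on calcium, and titin (*Ttn*) spans from the Z disc to the M band as an elastic scaffold. Atrial and B-type natriuretic peptides (*Nppa* and *Nppb*) are hormones that promote salt and water excretion. After birth *Nppa* is expressed mainly in atria, and both are known to rise in ventricular muscle cells under pressure overload. Fibroblasts are not known for high levels of any of these transcripts.

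The natriuretic peptide genes are neighbours, and so are the myosin heavy chain genes. In GENCODE release M21 (GRCm38), *Nppb* (ENSMUSG00000029019) lies at chr4:147985788-147987205 and *Nppa* (ENSMUSG00000041616) at chr4:148000722-148002079, both on the plus strand, 13516 bases apart with no protein-coding gene between them. *Myh6* (ENSMUSG00000040752) lies at chr14:54941921-54966927 and *Myh7* (ENSMUSG00000053093) at chr14:54970684-54994626, both on the minus strand and 3756 bases apart. The RefSeq promoters (GRCm38.p6, 300 bases each, most of them before an annotated start) of these genes are shown because the levels of neighbours differed from library to library, as given below. Capitals mark matches on either strand to the TATA box motif TATAAA, the M-CAT motif CATTCC, which TEAD factors bind, and the GATA motif AGATAA. The lines give *Nppb* (chr4:147985650-147985949), *Nppa* (chr4:148000472-148000771), *Myh6* (chr14:54966558-54966857) and the *Myh7* start farther upstream (chr14:54994577-54994876), each 5′ to 3′ on the strand of its gene.
Nppb: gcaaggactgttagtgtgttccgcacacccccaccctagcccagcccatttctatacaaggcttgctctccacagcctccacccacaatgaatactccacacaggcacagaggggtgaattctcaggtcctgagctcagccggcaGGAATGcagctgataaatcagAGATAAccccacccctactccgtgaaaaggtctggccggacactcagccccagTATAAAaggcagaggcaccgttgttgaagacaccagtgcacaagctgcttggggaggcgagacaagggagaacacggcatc
Nppa: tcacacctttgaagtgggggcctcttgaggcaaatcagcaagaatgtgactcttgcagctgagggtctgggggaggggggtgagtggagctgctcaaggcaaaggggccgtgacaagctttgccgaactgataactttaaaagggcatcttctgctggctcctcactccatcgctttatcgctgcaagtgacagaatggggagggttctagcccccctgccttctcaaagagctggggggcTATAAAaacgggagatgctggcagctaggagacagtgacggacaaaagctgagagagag
Myh6: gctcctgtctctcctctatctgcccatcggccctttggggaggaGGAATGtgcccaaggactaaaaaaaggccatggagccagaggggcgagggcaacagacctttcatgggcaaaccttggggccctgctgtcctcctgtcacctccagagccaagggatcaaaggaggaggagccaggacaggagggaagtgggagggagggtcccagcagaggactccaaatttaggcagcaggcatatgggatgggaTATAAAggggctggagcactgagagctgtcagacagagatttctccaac
Myh7: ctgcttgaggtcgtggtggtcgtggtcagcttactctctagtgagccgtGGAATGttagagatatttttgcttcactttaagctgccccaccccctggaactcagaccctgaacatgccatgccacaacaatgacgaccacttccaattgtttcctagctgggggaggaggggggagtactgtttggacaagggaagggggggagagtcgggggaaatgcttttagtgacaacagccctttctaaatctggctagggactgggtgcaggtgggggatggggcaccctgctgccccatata

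All 10 genes had at least 1 RefSeq promoter, 13 in all. TATAAA was present in 5 of the 13, each of another gene, against 13.6% of the 32851 promoters of the table. Relative to the annotated start it began at 33 for *Actc1* and at -216 for *Myl2*. Both *Myl2* windows end by chr5:122093238, before the GENCODE gene, which starts at 122100951. A CATTCC match occurred in 6 of the 13, each of another gene, against 14.7% of promoters, and the GATA element in 3, against 11.2%. The CArG box that serum response factor binds was found for *Actc1* and *Myl3* (1.63% of promoters), and a MEF2 element for *Ttn* (3.19%). *Nppb* has the first 3 of these elements in its window and *Nppa* the TATA box alone. These are matches of letters within the window and not measured binding.

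The remaining genes lie elsewhere: *Tnnt2* (ENSMUSG00000026414) at chr1:135836354-135852260 and *Myl2* (ENSMUSG00000013936) at chr5:122100951-122113472 on the plus strand, *Tnni3* (ENSMUSG00000035458) at chr7:4518305-4524229 on the minus strand, *Myl3* (ENSMUSG00000059741) at chr9:110741861-110769798 on the plus strand, and *Ttn* (ENSMUSG00000051747) at chr2:76703980-76982547 and *Actc1* (ENSMUSG00000068614) at chr2:114047282-114053548 on the minus strand. *Ttn* has the longest transcript of the 10, with 347 exons and 106824 bases. The library kit does not mark the strand. For *Nppa*, 56.8% of the 31-base words of its transcripts also occur in its antisense gene *Gm13054*, whose log2 value was 2.00, 1.01 and 1.29 in control libraries 3, 4 and 2 and 1.71, 2.78 and 2.23 in Hsp47-deleted libraries 1, 2 and 3, so that the split between these 2 genes is uncertain. *Myh6* and *Myh7* share 31.6% of the words of *Myh6* and 30.5% of those of *Myh7*. The other 7 genes share at most 5.70% of their words with another gene.

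The deposited values are log2(value + 1), in a linear unit that the table does not name. Depth is unknown, and fold changes on this scale understate the change of low genes. It is also not stated whether values were divided by transcript length, so the order of genes within a library is given only as the table shows it. In that order *Tnnt2*, *Myl2* and *Actc1* held the top 3 ranks among the 10 genes in every library but control 4, where *Tnnt2* ranked 4 behind *Tnni3*. Their mean linear values over the 6 libraries were 51.7, 40.1 and 31.2. *Tnni3* (18.1), *Ttn* (15.0), *Myh6* (14.6), *Nppa* (10.4) and *Myl3* (7.84) followed, and *Myh7* (3.76) and *Nppb* (0.647) were lowest. The ranges of neighbours in this order overlapped, except those of *Myh7* and *Nppb*. Relative to all genes of the table, *Myl2* stood between percentile 79.5 and 96.4 of its library and *Nppb* between 0 and 55.1.

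**Figure D1:**
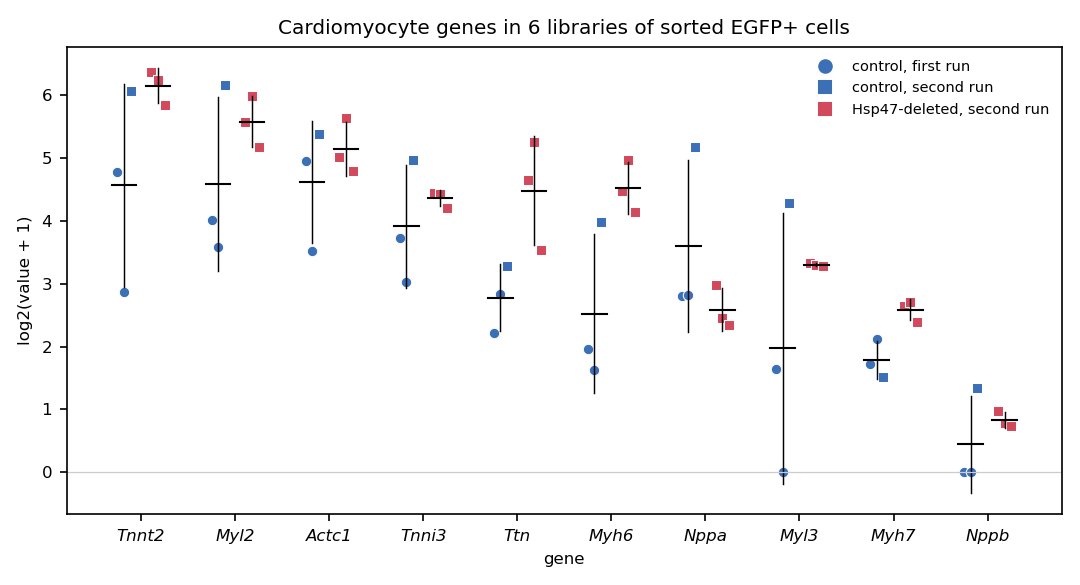
Level of each of the 10 genes (log2(value + 1), vertical axis) in each library, with group means (horizontal bars) ± SD (vertical bars, n = 3). For *Tnnt2*, *Myl2*, *Myh6*, *Tnni3* and *Myl3* the first-run controls (blue circles) lie below all 4 second-run libraries (squares), and for *Nppa* the second-run control stands alone at 5.17.

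Among the thick filament genes, *Myh6* had a log2 value of 1.96 and 1.63 in control libraries 3 and 4, 3.97 in control 2, and 4.47, 4.97 and 4.15 in Hsp47-deleted libraries 1, 2 and 3. The groups did not overlap, yet control 2 was much closer to the lowest Hsp47-deleted library than to the other controls. Group means were 2.52 ± 1.27 and 4.53 ± 0.41 (SD, n = 3 each), which differ by 2.01 log2 units with a standard error of 0.61 (limma adjusted p = 0.282), and against control 2 alone the difference was 0.55.

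*Myh7* ran otherwise, at 1.72 and 2.12 in the first-run controls, 1.52 in control 2 and 2.65, 2.71 and 2.40 in the Hsp47-deleted libraries. The second-run control was here the lowest of all 6 libraries, and the groups did not overlap. The means were 1.78 ± 0.31 and 2.59 ± 0.17 (SD, n = 3), a difference of 0.80 log2 units with a standard error of 0.32 (limma adjusted p = 0.315), and 1.07 against control 2. With each library centred on its median the pooled difference was 0.39.

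The regulatory light chain *Myl2* measured 4.01 and 3.58 in control libraries 3 and 4, 6.16 in control 2, and 5.57, 5.98 and 5.18 in the Hsp47-deleted libraries. The highest library was a control, and all 4 second-run libraries exceeded both of the first run. Pooled over runs, the difference was 0.99 (standard error 0.65, limma adjusted p = 0.466), whereas against control 2 it was -0.59.

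*Myl3*, the essential light chain, was listed at 0 in control 4 and had 1.63 in control 3, 4.28 in control 2, and 3.32, 3.30 and 3.28 in the Hsp47-deleted libraries. The spread was 2.16 (SD) among controls and 0.021 among Hsp47-deleted libraries, the widest among controls and the narrowest among Hsp47-deleted libraries of the 10 genes. Its log2 fold change of 1.33 (standard error 0.94, limma adjusted p = 0.496) became -0.98 against control 2.

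For the thin filament, troponin T (*Tnnt2*) had a log2 value of 4.77, 2.86 and 6.06 in control libraries 3, 4 and 2 and 6.36, 6.24 and 5.83 in the Hsp47-deleted libraries. Control 2 fell within the range of the Hsp47-deleted libraries, and control 4 was far below the rest. The groups differed by 1.58 on the log2 scale (standard error 0.72, limma adjusted p = 0.340), and 0.085 against control 2.

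Troponin I (*Tnni3*) had 3.72, 3.03 and 4.97 in the same controls and 4.44, 4.42 and 4.21 in the Hsp47-deleted libraries, which lay between the first-run controls and control 2. The pooled difference was 0.45 (standard error 0.49, limma adjusted p = 0.664), against -0.61 from control 2.

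Cardiac α-actin (*Actc1*) measured 4.95, 3.52 and 5.38 in the controls and 5.01, 5.63 and 4.79 in the Hsp47-deleted libraries. Controls 3 and 2 fell within the range of the Hsp47-deleted libraries, and control 4 below it. The log2 fold change of 0.53 (standard error 0.51, limma adjusted p = 0.627) was -0.24 against control 2 and -0.020 without control 4.

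Titin (*Ttn*) had 2.21, 2.84 and 3.28 in control libraries 3, 4 and 2 and 4.64, 5.25 and 3.54 in Hsp47-deleted libraries 1, 2 and 3. The groups did not overlap, and Hsp47-deleted library 3 was closer to control 2 than to the other Hsp47-deleted libraries. Their means differed by 1.70 (standard error 0.50, limma adjusted p = 0.280), and 1.20 against control 2.

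Of the hormone genes, *Nppa* was the only one of the 10 with a lower mean in the Hsp47-deleted group. Its log2 value was 2.81 and 2.82 in the first-run controls, 5.17 in control 2, and 2.97, 2.45 and 2.34 in the Hsp47-deleted libraries. Thus 5 of the 6 libraries lay within a narrow range, and control 2 exceeded the next by 2.20 log2 units. A lead of at least 1 log2 unit of that library over every other was seen for 0.635% of tested genes and for no other of the 10, the next being *Myl3* at 0.95. The group means were 3.60 ± 1.36 and 2.59 ± 0.34 (SD, n = 3), a difference of -1.01 log2 units with a standard error of 0.64 (limma adjusted p = 0.454). It was -2.58 against control 2 (standard error 0.44, limma adjusted p = 0.331) and -0.23 without that library. Adjusted p for *Nppa* ranged from 0.0888, with sequencing run as a covariate, to 0.782 over the settings tried.

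*Nppb* was listed at 0 in both first-run controls and had a log2 value of 1.34 in control 2 and 0.98, 0.78 and 0.73 in the Hsp47-deleted libraries. All 4 second-run libraries were thus above both of the first run, with the control the highest. With a mean linear value of 0.647 it was below the minimum of 1 required for the test, so that 9 of the 10 genes were tested, among 15109 in all. *Nppb* was below *Nppa* in every library, by 2.81, 2.82 and 3.84 log2 units in control libraries 3, 4 and 2 and by 1.99, 1.67 and 1.60 in the Hsp47-deleted libraries.

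None of the 9 tested genes passed an adjusted limma p of 0.05, against 0.245% of all tested genes. At an unadjusted limma p under 0.05, *Myh6*, *Myh7* and *Ttn* were higher and none was lower, against 14.5% and 0.755% of tested genes. The groups did not overlap for the same 3 genes, all higher in the Hsp47-deleted libraries. That is 3 of 9, where 18.3% of all tested genes were higher without overlap and 1.50% lower. Without control 2, the 3 Hsp47-deleted libraries lay above both remaining controls for 7 of 9 genes, against 41.4% of tested genes. Against control 2 alone, all 3 lay above it for *Myh6*, *Myh7* and *Ttn*, 3 of 9 against 46.7% of tested genes, and below it for *Nppa*, *Tnni3*, *Myl2* and *Myl3*, 4 of 9 against 11.7%. All 4 second-run libraries exceeded both first-run libraries for 6 of 9 tested genes, against 35.0%.

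The median log2 fold change of the 9 genes was 0.99, beside 0.35 over all tested genes. With each library centred on its median, which moved the median of all genes to -0.060, that of the 9 genes was 0.58, and 8 of 9 were still higher. Within the second run alone it was -0.24, beside 0.29 over all tested genes, with 4 higher and 5 lower. Neither that fit, in which the lone control is assumed to vary like the Hsp47-deleted libraries and 0.218% of genes were called, nor the fit with run as a covariate (0.331%) called any of the 9. Leaving out control 2, where run and label coincide, called *Myh6* (log2 fold change 2.73), *Tnnt2* (2.33), *Myl3* (2.48), *Myl2* (1.78) and *Ttn* (1.95) in limma at adjusted p = 0.00485, 0.0279, 0.0179, 0.0157 and 0.0421, against 18.3% of all tested genes. Under every other setting, adjusted p ranged from 0.250 to 0.782 for *Myh6*, from 0.308 to 0.981 for *Tnnt2*, from 0.460 to 0.854 for *Myl3*, from 0.440 to 0.853 for *Myl2* and from 0.241 to 0.782 for *Ttn*.

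**Figure D2:**
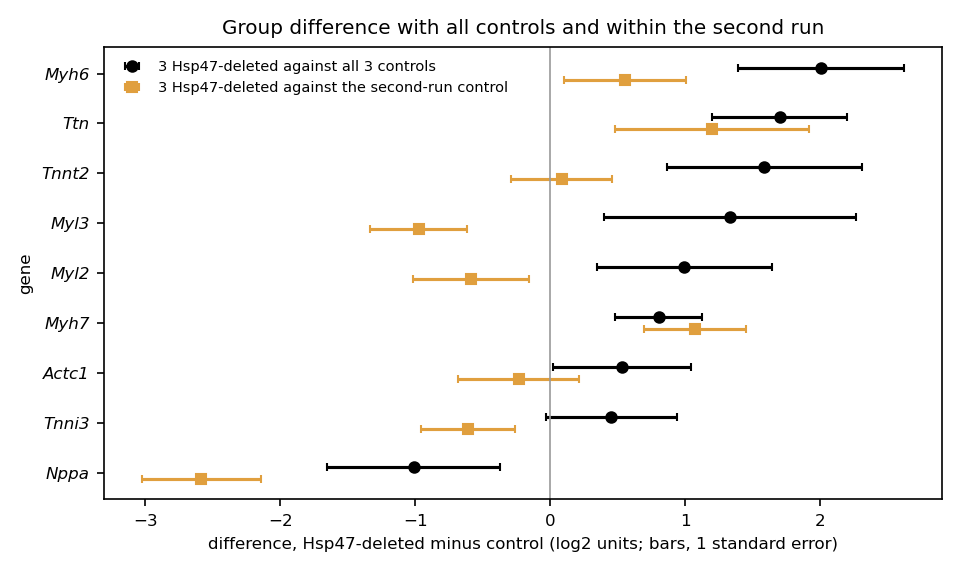
Difference of each tested gene between the groups (log2 units, Hsp47-deleted minus control) with all 3 controls (black circles) and with control 2 alone (orange squares); bars are 1 standard error from limma. The sign turns for *Tnni3*, *Myl2*, *Myl3* and *Actc1*, and the difference of *Nppa* moves from -1.01 to -2.58.

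Summed over the 10 genes, the linear level was 100.4, 52.5 and 287.3 in control libraries 3, 4 and 2 and 246.6, 292.9 and 180.4 in Hsp47-deleted libraries 1, 2 and 3. Control 2 held 3.76 times the mean of the first-run controls, and the Hsp47-deleted mean was 0.835 times that of control 2. In all libraries the 10 genes made up a small part of the total, from 0.00691% in control 4 to 0.0362% in Hsp47-deleted library 2. In sorted bulk RNA, fewer cells of a type and less RNA per cell cannot be told apart. Control 2 was the highest library for 5 of the 10 genes and Hsp47-deleted library 2 for 4, while control 4 was the lowest for 6.

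Fibroblast markers were far above these genes in every library. *Dcn* (decorin), the highest, had log2 values from 12.3 to 13.1, and the 10 fibroblast markers together reached linear sums from 8877 to 16110, so that the 10 cardiomyocyte genes amounted to 1.08%, 0.591% and 2.36% of the fibroblast marker sum in control libraries 3, 4 and 2 and to 1.72%, 1.82% and 1.25% in the Hsp47-deleted libraries. The sum of a list of 12 cardiomyocyte markers ordered the 6 libraries as the sum of the 10 genes did. This list holds none of the 10, and all its genes recur in the lists described below. Its sum was 31.8, 23.5 and 104.0 in the controls and 64.0, 105.1 and 54.3 in the Hsp47-deleted libraries. Of its 12 genes, 9 were higher in all 4 second-run libraries than in both of the first, beside 35.0% of all tested genes. *Mb* (myoglobin), its highest member, had log2 values of 3.27, 2.84 and 4.88 and of 4.07, 4.97 and 4.01. *Actn2*, not among the 9, was lowest in control 2, at 1.82 against 2.29 and 3.01 in the first-run controls. *Ckm* was at 0.74, 0.62 and 0.79 in control libraries 3, 4 and 2 and at 2.03, 2.59 and 1.80 in the Hsp47-deleted libraries. *Tnnc1*, the calcium-binding troponin subunit, was listed at 0 in control 3 and *Mybpc3*, myosin binding protein C, in control 4.

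Markers of fibroblasts and of other cell types also differed between the runs. Fibroblast markers summed to 9279 and 8877 in the first-run controls and to 12180 in control 2. In the Hsp47-deleted libraries they summed to between 14380 and 16110, so the sum also separated the groups. Of these markers 6 of 10 were higher in every second-run library, beside 35.0% of all tested genes. *Postn*, part of the fibroblast sum and the locus of the MerCreMer cDNA, followed the label. Its linear values were 57.29, 56.95 and 68.54 in control libraries 3, 4 and 2 and 1188, 1451 and 1317 in the Hsp47-deleted libraries. The log2 fold change was 4.41 (limma adjusted p = 0.00337, at most 0.1875 over the settings tried), and 4.24 against control 2. The endothelial sum was 240.3 and 105.3 in the first-run controls, 639.0 in control 2 and 601.3, 475.1 and 285.7 in the Hsp47-deleted libraries, with 8 of 10 markers higher in every second-run library, and its highest marker *Fabp4* ranged from 3.75 to 6.55 in the first run and from 6.92 to 8.59 in the second. Leukocyte markers summed to 33.1 and 67.6 in the first-run controls and to between 135.5 and 264.0 in the second run, with 7 of 9 higher there. *Ptprc* (CD45), which defines leukocytes, was listed at 0 in all 6 libraries. *Cd68*, the highest of the list by mean log2 value, did not follow the run, with its highest value in control 4 (6.01) and its lowest in control 2 (4.33). *S100a8*, a neutrophil gene named after its values were seen, was at 1.29 and 0.71 in the first run and 7.38, 5.05, 6.23 and 6.53 in the second, and made up 165.3 of the linear sum of 264.0 in control 2. Erythroid markers summed to 82.4, 13.3 and 342.0 in the controls and to between 81.1 and 136.8 in the Hsp47-deleted libraries, with *Hba-a2* at 7.92 in control 2. Mural marker sums overlapped between the runs, with values from 187.5 to 336.6 in controls and from 179.8 to 264.2 in Hsp47-deleted libraries and *Rgs5* between 6.46 and 7.99. Mesothelial and Schwann cell markers stayed at sums of at most 11.2 and 9.52, with *Wt1* (from 1.08 to 3.43) and *S100b* (from 1.43 to 2.69) the highest. The part of other cells in the differences of the 10 genes was not tested.

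**Figure D3:**
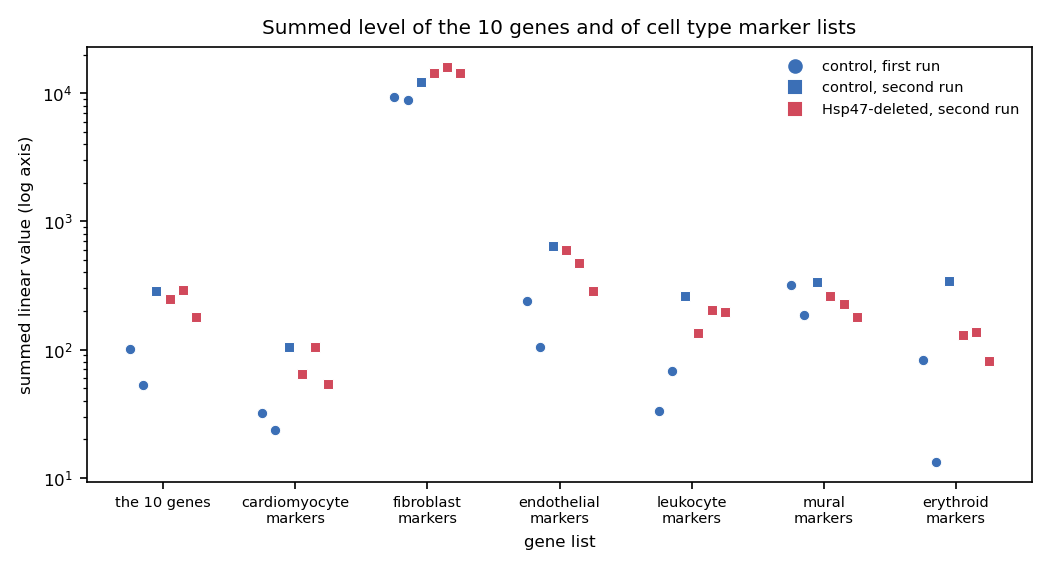
Summed linear value of the 10 genes and of 6 cell type marker lists (logarithmic vertical axis) in each library. Fibroblast markers lie between 8877 and 16110, the 10 genes between 52.5 and 292.9, and the second-run control (blue square) is close to the Hsp47-deleted libraries (red squares) for the 10 genes.

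A factor that scales a library as a whole leaves the difference between a pair of its genes unaltered, apart from the effect of the added 1. *Myh7* minus *Myh6*, the log2 proportion of β to α myosin, was -0.25 and 0.49 in the first-run controls, -2.46 in control 2 and -1.82, -2.26 and -1.75 in the Hsp47-deleted libraries. It was lower in every second-run library than in both of the first run, with the second-run control the lowest, so the groups overlapped. *Tnni1* minus *Tnni3*, the proportion of the fetal (slow skeletal) to the cardiac troponin I, was -2.77, -2.65 and -3.84 in control libraries 3, 4 and 2 and -3.06, -2.51 and -3.21 in the Hsp47-deleted libraries, and followed neither run nor label.

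Taken against *Myl2*, a ventricular light chain chosen as the reference after the values were seen, *Myh6* was at -2.05, -1.95 and -2.19 in control libraries 3, 4 and 2 and at -1.10, -1.01 and -1.03 in the Hsp47-deleted libraries. *Nppa* minus *Myl2* was -1.20, -0.76 and -0.99 in the controls and -2.60, -3.53 and -2.84 in the Hsp47-deleted libraries. For these 2 genes the controls of both runs lay together and apart from the Hsp47-deleted libraries. Of the 8 other tested genes, *Myh6* alone was higher without overlap relative to *Myl2*, where 2.06% of all tested genes were, and *Nppa* alone was lower, where 1.46% were. *Tnnt2*, *Tnni3*, *Myl3*, *Actc1*, *Ttn* and *Myh7* overlapped between the groups on this scale. As the reference was chosen with the values seen, these shares do not measure how rare the separations are. With *Tnnt2* as the reference instead, *Myh6* overlapped between the groups and *Nppa* did not. *Nppa* minus *Myh6* was 0.85, 1.19 and 1.20 in control libraries 3, 4 and 2 and -1.50, -2.51 and -1.81 in the Hsp47-deleted libraries.

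The atrial light chain *Myl7*, which is not among the 10, had log2 values of 2.51, 1.35 and 3.72 in control libraries 3, 4 and 2 and of 1.03, 1.07 and 0.90 in the Hsp47-deleted libraries, without overlap. The group difference was -1.53 (standard error 0.57, limma adjusted p = 0.306), and -2.72 against control 2 (limma adjusted p = 0.124, the lowest over the settings tried, which reached 0.782). Relative to *Myl2* it was at -1.50, -2.23 and -2.44 in the controls and at -4.54, -4.91 and -4.28 in the Hsp47-deleted libraries. *Myl7* and *Sln* (sarcolipin, an atrial regulator of the calcium pump, named after its values were seen) were, as *Nppa* was, at least 1 log2 unit higher in control 2 than in any other library, by 1.21 and 1.73. *Sln* was at 0.94, 0 and 3.09 in the controls and at 0, 1.37 and 0.63 in the Hsp47-deleted libraries. The light chain of atria and fetal ventricles, *Myl4*, led there by only 0.10, at 3.19, and its log2 fold change was -0.85 (limma adjusted p = 0.366).

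**Figure D4:**
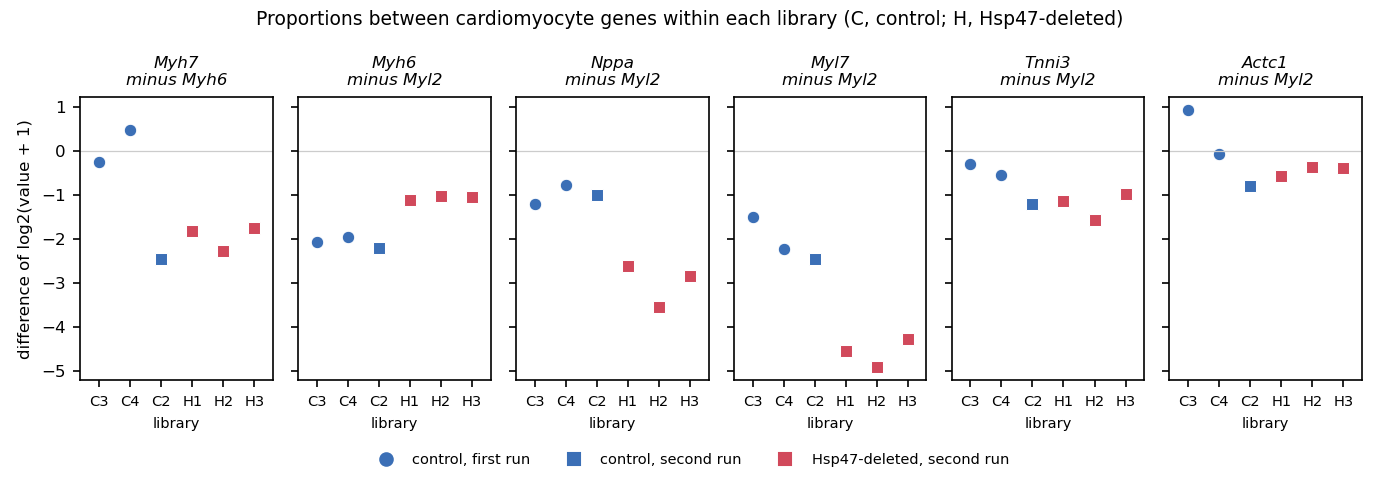
Difference of log2(value + 1) between pairs of genes within each library (vertical axis), for control (blue; circles, first run; square, second run) and Hsp47-deleted libraries (red squares). *Myh7* minus *Myh6* separates the runs, *Myh6*, *Nppa* and *Myl7* minus *Myl2* separate the groups with the second-run control among the controls, and *Tnni3* and *Actc1* minus *Myl2* overlap between the groups.

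Genes that work beside the 10 were described from 8 lists, in none of which any gene passed an adjusted limma p of 0.05. Without control 2, when 18.3% of all tested genes were called, 5 genes of energy metabolism, 4 of the Z disc, 3 transcription factors and 1 each of the thin filament, natriuretic peptide processing and skeletal lists passed. For each list the counts below are given for all 6 libraries, for the second run alone and after centring, beside medians over all tested genes of 0.35, 0.29 and -0.060, and values for single genes are log2 fold changes followed by the difference from control 2. In the list of the thick filament and M band, 4 of 6 tested genes had a higher mean and 2, *Myl4* and *Myl7*, a lower one, with a median of 0.15. In the second run 3 were higher and 3 lower (median -0.016), and after centring 2 and 4 (median -0.27). *Myom2* (myomesin 2 of the M band) was at 0.85 and 0.67, and *Myl4* at -0.85 and -0.95.

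All 7 tested thin filament genes had higher means (median 0.55), as did 6 of 7 in the second run (median 0.30) and after centring (0.14). Among them *Tpm1* (tropomyosin 1) was at 0.54 and 0.17, *Acta1* (skeletal α-actin) at 1.27 and 0.19, and *Tmod1* (tropomodulin 1) at 0.16 and 0.69, or -0.26 pooled after centring. Of 9 genes of the Z disc and titin partners, 8 had higher means (median 0.40), but 3 in the second run, where 6 were lower (median -0.19), and 4 after centring, with 5 lower (median -0.012). *Ankrd1*, a load-responsive titin partner, was at 2.04, 1.83 and 3.98 in the controls and 3.44, 4.14 and 4.22 in the Hsp47-deleted libraries, a difference of 1.32 that was -0.043 against control 2. *Nexn* (nexilin) turned from -0.33 to 0.46.

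For calcium handling and channels the means of 7 of 9 genes were higher, with a median (0.35) equal to that of all tested genes. In the second run 5 were higher and 4 lower (median 0.21), and after centring 4 and 5 (median -0.069). *Slc8a1*, the sodium-calcium exchanger, was at 0.87 and 0.28, and *Atp2a2*, the calcium pump of the sarcoplasmic reticulum, at 0.34 and 0.89, or -0.074 pooled after centring. Among 12 genes of energy metabolism 11 had higher means (median 1.10), 5 in the second run (median -0.21) and 10 after centring (median 0.68). *Fabp3*, the fatty acid binding protein of muscle, was 0.76 and 0.70 in the first-run controls and 3.66 in control 2, with 3.11, 3.56 and 2.72 in the Hsp47-deleted libraries. Its difference of 1.42 became -0.52 against control 2, that of *Mb* went from 0.69 to -0.53, and that of *Pygm* (muscle glycogen phosphorylase) from 1.11 to 1.57.

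Cardiac transcription factors, several of which fibroblasts of the heart also express, had higher means for 9 of 11 tested genes (median 0.39) and likewise for 9 in the second run (median 0.45), but for 5 of 11 after centring (median -0.026). *Tbx20* was at 0.49 and 0.52, *Gata6* at 1.00 and 0.63, and *Mef2a* at 0.22 and 1.01, or -0.20 pooled after centring. All 4 tested genes of natriuretic peptide processing and receptors had higher means (median 0.72), and 3 of 4 in the second run (median 0.11) and after centring (0.30). *Npr2*, the receptor of C-type natriuretic peptide, was at 0.83 and 0.036, and *Furin*, a protease that cleaves the B-type precursor, at 0.96 and 1.02.

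Of the skeletal muscle isoforms, 4 of 10 were tested, and 3 of these had lower means (median -0.52, and -0.94 after centring). In the second run 3 of the 4 were higher (median 0.47), and without control 3 or without control 4 the split was 2 and 2 (medians 0.18 and 0.099). *Tnnt3* (fast skeletal troponin T) was at 2.21, 2.21 and 2.73 in the controls and 4.41, 4.53 and 4.01 in the Hsp47-deleted libraries, a difference of 1.93 log2 units (standard error 0.32, limma adjusted p = 0.0809, from 0.0683 to 0.630 over the settings other than leaving out control 2, where it was 0.00741), and 1.58 against control 2. *Tnnt1* (slow skeletal troponin T) turned from -0.37 to 0.69.

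Averaged after centring each gene on its mean, the profile of the 10 genes over control libraries 3, 4 and 2 and Hsp47-deleted libraries 1, 2 and 3 was -0.74, -1.27, 0.70, 0.53, 0.66 and 0.13 log2 units. *Tnni3* and *Myl2* followed it most closely, with root-mean-square differences of 0.24 and 0.25, and *Myh7* (0.76) and *Nppa* (1.0) least. Of 9706 other genes with a linear mean of at least 5, those nearest to this profile over the 6 libraries included *Lnx2* (0.071), *Zdhhc8* (0.099), *Palmd* (0.10), *Anxa2* (0.10), *Ctla2a* (0.11), *Mrps21* (0.11), *Slc35a2* (0.11), *Arl6ip1* (0.12) and *Ptrf* (0.12). None of these belongs to the lists used here, and *Anxa2* (annexin A2), the most abundant, ranged from 6.69 in control 4 to 8.47 in Hsp47-deleted library 2.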

How the data were processed

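In all, 6 RNA-seq libraries of sorted EGFP+ cells were compared, 3 control and 3 labelled Hsp47-deleted. The authors deposited 1 table of log2(value + 1) per gene and library, with group means and their own comparison of the groups (folds and p-values), which was not used. The submitters' processing notes name kallisto and mm10, and the methods name AltAnalyze; versions and the linear unit are not given in the sources used here, so the depth and its precision are unknown. The linear values summed to between 690499 and 855404 per library.

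The log2 values were fitted as deposited by lmFit and eBayes (with trend) of limma 3.58.1 (R 4.3.3; statmod 1.5.0 for the robust setting), without covariates, over 15109 genes with a linear mean of at least 1 (13878 left out), with Benjamini-Hochberg adjustment over all of them. P-values measure the spread between these libraries; with 3 against 3, an exact test of 1 gene cannot go below 0.10. The fit was tested on simulated data with independent genes and no run effect, which cannot show how it behaves where run and label are confounded. The 10 genes, the lists, the marker genes and the alternatives were chosen with earlier results of these data known. The text names the 10 genes, *Serpinh1*, the highest marker of each cell type, the 10 genes nearest in profile (1 of them is not reported here) and, per list, the 2 genes with the highest mean and that with the largest change; others are named after their values were seen. Alternatives were run as covariate, the second run by itself, replicate number as block, dropping the filter or raising it to 5, a pseudocount of 0.1 or 5, quantile normalization, median centring, eBayes without trend or robust, and leaving out each library. Counts of genes without overlap were recomputed without control 2 and within the second run after the data were seen. Protein sequences were not used here.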

Additional observations from a re-analysis of the deposited data

How the results depend on the processing

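With sequencing run as a covariate, and equally within the second run alone, the log2 fold change turned to -0.61 for *Tnni3*, -0.59 for *Myl2*, -0.98 for *Myl3* and -0.24 for *Actc1*, and with the replicate number as a block that of *Tnni3* was -0.031. Whether the replicate numbers pair the libraries cannot be told here: only 2 are shared, with correlations of deviations of 0.156 and 0.228. The block also leaves too few degrees of freedom to judge pairing by. The number of genes called (limma, adjusted p under 0.05) was 37 in the fit without covariates and 0 with the block. That count was 16 with a pseudocount of 0.1, 17 with quantile normalization, 18 after centring, and from 8 to 2768 when a library was left out, the highest without control 2 and the lowest without Hsp47-deleted library 3. Leaving out a library gave log2 fold changes from 1.56 to 2.73 for *Myh6*, 0.73 to 2.33 for *Tnnt2*, 0.49 to 1.78 for *Myl2*, 0.35 to 2.48 for *Myl3*, 1.31 to 2.17 for *Ttn*, -0.020 (without control 4) to 0.91 for *Actc1*, 0.67 to 0.97 for *Myh7*, 0.012 to 0.98 for *Tnni3* and -1.41 to -0.23 for *Nppa*. Called genes ranged from 0 to 5 among the members, 0 to 1 for the thin filament, 0 to 4 for the Z disc, 0 to 5 for energy metabolism, 0 to 3 for transcription factors, 0 to 1 for natriuretic peptide processing and 0 to 1 for skeletal isoforms, and each highest count came without control 2. Without that library 7 rather than 3 tested members were higher without overlap, where the share of all tested genes was 41.4% rather than 18.3%. Within the second run 4 rather than 0 were lower, where that share was 11.7% rather than 1.50%. Mean proportions moved with the pseudocount. With 5, *Myh7* minus *Myh6* in Hsp47-deleted libraries was -1.44 and *Nppa* minus *Myh6* in controls 0.71. With 0.1 and 5, *Nppb* minus *Nppa* was -5.44 and -1.63 in controls and -2.54 and -0.80 in Hsp47-deleted libraries, and *Tnni1* minus *Tnni3* was -4.10 and -1.75 in controls and -3.49 and -1.86 in Hsp47-deleted libraries. The 10 genes nearest in profile cannot change with centring, which shifts all genes of a library equally, so their agreement there shows nothing. The cause of these changes was not tested. With the depth unknown, values of 0 give no limit.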
